A study of Arabidopsis with 12 samples.

Results

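The WRKY family of Arabidopsis thaliana was followed here through a list of 52 loci, grouped by their known subgroups I, IIa to IIe and III. WRKY genes outside this list were not counted as members. Family and subgroup counts, sums and shares below refer to the list alone. A member entered the tests when its transcripts, summed per locus, reached 1 TPM or more in at least 3 of 12 seedling libraries. TPM gives the share of all transcripts in a library, corrected for transcript length. Of the 52 members 44 passed, among 19667 of 27655 loci in the whole table. By subgroup these were 10 of 10 in I, 3 of 3 in IIa, 2 of 5 in IIb, 11 of 11 in IIc, 6 of 7 in IId, 7 of 7 in IIe and 5 of 9 in III.

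WRKY proteins are plant transcription factors with a conserved DNA-binding domain built around a zinc finger, and they bind W-box elements in the promoters of defence, senescence and stress genes. Subgroup I proteins carry a pair of such domains, the others carry a single one, and subgroup III differs in its zinc finger. Many members act downstream of mitogen-activated protein kinases, several bind proteins with a VQ motif, and a number of them regulate their own genes and those of other members.

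All libraries came from seedlings carrying the flu mutation, in which a brake on chlorophyll precursor synthesis is missing, so that protochlorophyllide builds up in the dark and gives singlet oxygen in plastids upon illumination. The flu toc33 groups carried in addition toc33-1, a mutation of a receptor of the outer chloroplast membrane that takes part in protein import. Plants of either genotype grew under continuous light at 22 °C on half-strength MS medium to an age of 7 d by the sample titles. The design text gives an age lower by 1 d. They were sampled after 4 h of darkness (flu dark and flu toc33 dark) or after 4 h of darkness and 1 h of light (flu light and flu toc33 light), with 3 libraries a group. Every plant compared carried flu, and no wild type was analysed here, so a response to light alone and a response to singlet oxygen cannot be told apart. No group stayed dark for the additional hour, so light and elapsed time cannot be told apart either. By its title the series is about TOC33 in singlet oxygen signalling from chloroplast to nucleus, and the comparisons ask how the light response of the family differed with that mutation.

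The sequencing depth is unknown, since TPM values do not keep it, and no counting interval can be given. Nothing states whether the 3 libraries of a group came from separate cultures, so the spread between them may be technical. Replicate 3 of flu dark stood apart, with a median absolute log2 difference of 0.155 and 0.152 from its partners, against 0.0653 to 0.0858 in the other pairs. TOC33 itself was at 203 ± 11.1 TPM in flu dark, 172 ± 2.71 in flu light, 48.7 ± 0.631 in flu toc33 dark and 3.97 ± 0.271 in flu toc33 light (mean ± SD, n = 3). The flu toc33 groups compared for light thus differed strongly in TOC33 transcript, far more than the flu groups. The reason was not tested, nor was the part of this difference in the results on WRKY members. The titles speak of seedlings, while the tissue field says leaf. The 5 mesophyll markers summed to 26675 TPM or more in every library, and the root markers COBL9, NRT2.1 and IRT1 stayed under 1 TPM throughout. Summed over 4 seed markers the level ran from 64.8 to 70.9 TPM in flu dark, 18.3 to 23.8 in flu light, 183 to 770 in flu toc33 dark and 106 to 113 in flu toc33 light. The other 3 of the 6 root markers, BGLU23, CASP1 and EXPA7, passed the filter. All 6 root markers together ran from 1147 to 1345, 794 to 838, 1521 to 1568 and 1334 to 1364 TPM in the same order. These sums moved with genotype and light, and their part in the results on WRKY members was not tested. In such bulk samples fewer cells of a type and less RNA per cell cannot be told apart.

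Taken as a whole, the family was far higher in flu light than in any other group. The summed level of the 52 members was 585 ± 22.9 TPM in flu dark and 2235 ± 7.96 TPM in flu light, whereas in flu toc33 it was 518 ± 6.07 TPM after darkness and 478 ± 10.2 TPM after light (mean ± SD, n = 3). The flu light libraries did not overlap those of any other group. WRKY15 had the highest level of all members in flu dark, flu toc33 dark and flu toc33 light, with means of 100.5, 89.2 and 50.95 TPM. In flu light the order changed, with WRKY33 at 477, WRKY40 at 284, WRKY18 at 224 and WRKY15 at 224 TPM. WRKY18 and WRKY15 overlapped there. The 4 highest members of each group held 32.7% of the family's TPM in flu dark, 54.1% in flu light, 34.7% in flu toc33 dark and 30.9% in flu toc33 light.

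**Figure D1:**
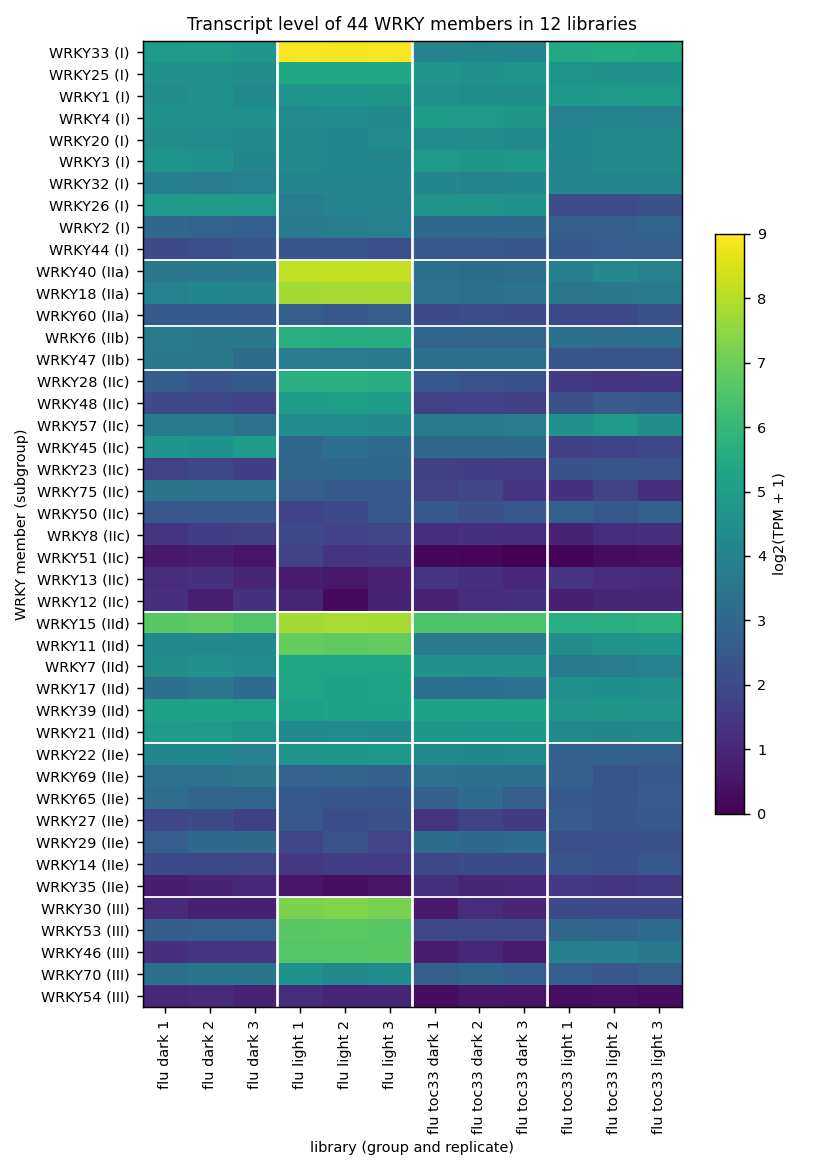
Level of the 44 tested WRKY members (rows, by subgroup) in each of the 12 libraries (columns), as log2(TPM + 1) on the colour scale. In the flu light columns WRKY33, WRKY40, WRKY18, WRKY15 and WRKY30 are brightest, and the flu toc33 light columns lack these bright cells.

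Changes were tested with limma on log2(TPM + 1) across all 19667 loci, with Benjamini-Hochberg adjustment and a threshold of 0.05, and every fold below is on this scale unless stated, which understates the change of members with low TPM. Light raised 25 and lowered 12 of the 44 members in flu, where 28.2% and 33.4% of all loci tested rose and fell. The 25 include WRKY51, which passed the filter only through its flu light libraries. In flu toc33 16 members rose and 15 fell, against 40.4% and 30.6% of all loci. The median log2 change of the members was 0.33 in flu and -0.05 in flu toc33, beside -0.04 and 0.07 over all loci. With at least a 2-fold change required, 13 members rose and 1 fell in flu (9.15% and 3.63% of loci), and 5 rose and 3 fell in flu toc33 (9.14% and 6.86% of loci).

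The difference between these responses, flu toc33 minus flu, was tested as an interaction. It was lower for 26 members and higher for 6, where 25.1% and 31.6% of all loci were called in those directions. The 26 include WRKY51, which passed the filter only through its flu light libraries and lost its call with a pseudocount of 0.1 TPM. The members' median interaction was -0.54 on the log2 scale, beside 0.07 over all loci. All 17 members whose interaction was called and at least 2-fold were lower (7.35% of loci, with 4.53% higher). Under a scaling by median ratios the whole table split into 4915 higher and 6186 lower interactions, in place of 6220 and 4931.

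The genotypes also differed in darkness, by less. After 4 h of darkness 17 members were lower and 3 higher in flu toc33, where 20.5% and 20.9% of all loci were lower and higher. The median difference of the members was -0.13, beside 0.01 over all loci. At least 2-fold differences in darkness were called for WRKY75 and WRKY45 alone, both lower (1.77% of loci, with 0.768% higher). After the hour of light 29 members were lower and 6 higher, against 27.9% and 39.0% of all loci, and the medians were -0.74 and 0.08. Of these, 20 lower members and 1 higher member, WRKY35, differed at least 2-fold (7.78% and 3.63% of loci). In that comparison scaling by median ratios split all loci into 6018 higher and 6919 lower, in place of 7662 and 5478. The 17 members lower in darkness and the 29 lower in light include WRKY51 and WRKY54, which passed the filter only through flu libraries.

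**Figure D2:**
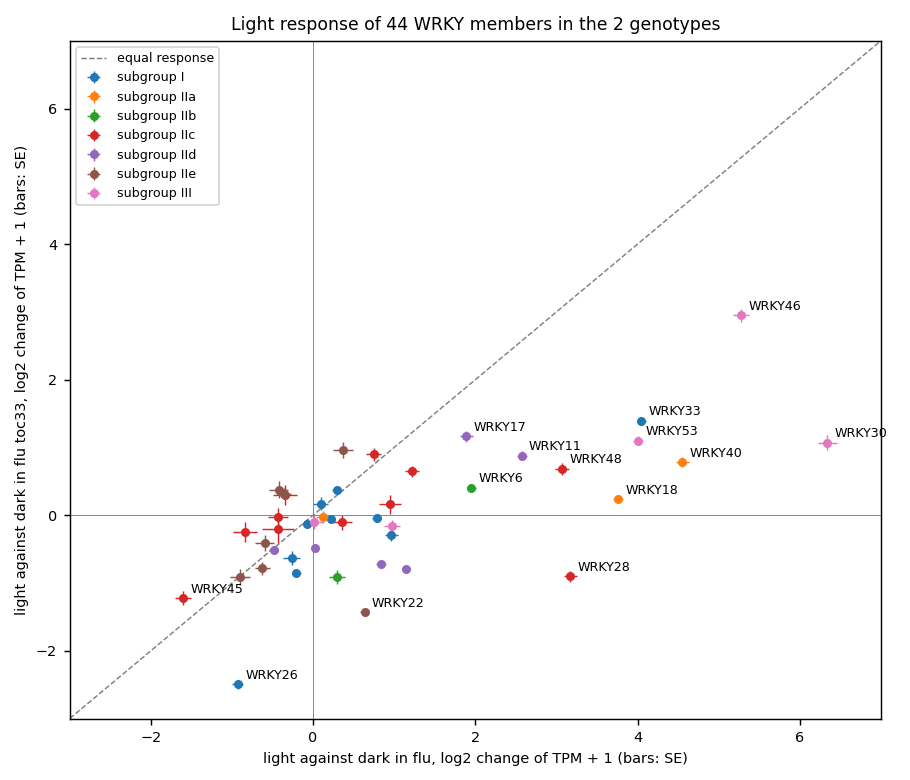
Log2 change of TPM + 1 with light in flu (horizontal) against the same change in flu toc33 (vertical) for 44 members, coloured by subgroup, with bars for the SE and a dashed line of equal response. The strongly induced members lie below the line, and WRKY28 and WRKY22 fall below 0 on the vertical axis. Each point's position on either axis rests on that genotype's own 6 libraries, and the 20 members described one by one below include all labelled ones.

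Subgroup III held the 2 members with the largest log2 responses in flu, WRKY30 and WRKY46. Its summed level was 19.5 ± 1.29 TPM in flu dark, 373 ± 5.13 in flu light, 11.0 ± 1.05 in flu toc33 dark and 28.7 ± 0.918 in flu toc33 light. WRKY30 (AT5G24110), whose gene is known to respond to reactive oxygen species, was at 1.099, 0.746 and 0.715 TPM in flu dark, 147, 154 and 144 TPM in flu light, 0.554, 1.22 and 0.958 TPM in flu toc33 dark, and 3.04, 2.96 and 2.91 TPM in flu toc33 light. The flu light libraries stood far above all others, the flu toc33 light libraries stood above both dark groups, and the dark groups overlapped. WRKY30 rose by 6.34 ± 0.116 (SE) in flu and by 1.07 ± 0.116 (SE) in flu toc33 on the log2 scale (limma adjusted p = 1.28e-14 and 1.5e-06). The flu toc33 response was lower by 5.27 ± 0.164 (SE) (limma adjusted p = 1.54e-11), so that the flu toc33 light mean came to 2.00% of that of flu light. WRKY46 (AT2G46400), which takes part in salicylic acid defence and in drought and brassinosteroid responses, was at 1.36, 1.68 and 1.704 TPM in flu dark, 96.03, 98.03 and 103 TPM in flu light, 0.662, 1.05 and 0.663 TPM in flu toc33 dark, and 13.6, 13.3 and 11.6 TPM in flu toc33 light. Both light groups lay above both dark groups, flu light the highest, and flu toc33 dark lay below flu dark without overlap. Its log2 rise was 5.28 ± 0.0942 (SE) in flu and 2.95 ± 0.0942 (SE) in flu toc33 (limma adjusted p = 1e-14 and 2.85e-12), the largest rise of any member in flu toc33, and the interaction was -2.32 ± 0.133 (SE) (limma adjusted p = 5.45e-09).

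WRKY53 (AT4G23810), a regulator of leaf senescence, was at 5.23, 5.61 and 5.404 TPM in flu dark, 103, 104 and 99.7 TPM in flu light, 2.88, 2.76 and 2.76 TPM in flu toc33 dark, and 6.92, 6.70 and 7.89 TPM in flu toc33 light. The order from low to high was flu toc33 dark, flu dark, flu toc33 light and flu light, with no overlap between any groups. In flu it rose by 4.01 ± 0.0633 (SE), in flu toc33 by 1.10 ± 0.0633 (SE), and the interaction was -2.91 ± 0.0895 (SE) (limma adjusted p = 3.13e-15, 1.75e-09 and 1.43e-11). In darkness the flu toc33 mean was 51.7% of the flu mean, a log2 difference of -0.75 ± 0.0633 (SE) (limma adjusted p = 6.73e-07). WRKY70 (AT3G56400), which promotes salicylic acid signalling and restrains senescence, was at 8.99, 10.1 and 10.3 TPM in flu dark, 22.8, 18.9 and 19.1 TPM in flu light, 5.63, 6.51 and 5.43 TPM in flu toc33 dark, and 5.41, 4.41 and 5.58 TPM in flu toc33 light. The light libraries of flu were above all others, whereas light and dark libraries of flu toc33 overlapped and lay below flu dark. It rose by 0.97 ± 0.0982 (SE) in flu (limma adjusted p = 1.06e-06), while its change in flu toc33 was -0.16 ± 0.0982 (SE) (limma adjusted p = 0.156), and the interaction was -1.14 ± 0.139 (SE) (limma adjusted p = 1.07e-05). With quantile normalization the change in flu toc33 was called as a fall (log2 -0.34, limma adjusted p = 0.0123). WRKY54, a close relative that acts with WRKY70, was low throughout, at 0.991, 1.01, 0.354 and 0.265 TPM in the same group order. Its light changes of 0.01 and -0.10 were not called, but it was lower in flu toc33 by 0.56 in darkness and 0.67 in light (limma adjusted p = 0.00118 and 0.000121). WRKY54 reached 1 TPM only in flu libraries (1.01 and 1.09 TPM in darkness, 1.26 TPM in light). Its genotype calls therefore follow in part from the filter and are given as a description.

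Subgroup IIa consists of WRKY18, WRKY40 and WRKY60, which form complexes with each other and are known as regulators of basal defence and abscisic acid responses. Its summed level was 31.6 ± 1.20 TPM in flu dark, 514 ± 11.2 in flu light, 21.1 ± 0.673 in flu toc33 dark and 29.8 ± 2.59 in flu toc33 light. WRKY40 (AT1G80840), also known as a repressor of genes that respond to impaired chloroplasts and mitochondria, was at 10.8, 11.2 and 11.5 TPM in flu dark, 278, 285 and 291 TPM in flu light, 8.703, 8.06 and 8.43 TPM in flu toc33 dark, and 13.8, 17.9 and 14.1 TPM in flu toc33 light. The flu light libraries were far above the rest, and those of flu toc33 light were above both dark groups by a small margin. WRKY40 rose by 4.55 ± 0.0769 (SE) in flu and 0.78 ± 0.0769 (SE) in flu toc33, with an interaction of -3.77 ± 0.109 (SE) (limma adjusted p = 5.96e-15, 5.48e-07 and 7.64e-12). WRKY18 (AT4G31800) was at 14.5, 16.4 and 16.02 TPM in flu dark, 218, 228 and 227 TPM in flu light, 9.88, 8.86 and 9.77 TPM in flu toc33 dark, and 10.5, 11.6 and 12.1 TPM in flu toc33 light. In flu toc33 the light libraries were above the dark ones but stayed below every flu dark library. The log2 change was 3.76 ± 0.0631 (SE) in flu and 0.24 ± 0.0631 (SE) in flu toc33, and the interaction -3.52 ± 0.0893 (SE) (limma adjusted p = 5.61e-15, 0.00399 and 2.29e-12). The small rise in flu toc33 was not called with quantile normalization, where it was 0.13 (limma adjusted p = 0.097). WRKY60 was at 4.77, 5.32, 3.25 and 3.17 TPM in the same order. Unlike the other two it was called in neither light comparison, with changes of 0.13 and -0.03, although quantile normalization called a fall in flu toc33 (log2 -0.22, limma adjusted p = 0.0377), and its interaction of -0.15 ± 0.132 (SE) was not called either (limma adjusted p = 0.337). All 3 members of the subgroup were lower in flu toc33 dark than in flu dark, by 0.66 for WRKY18, 0.37 for WRKY40 and 0.44 for WRKY60.

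**Figure D3:**
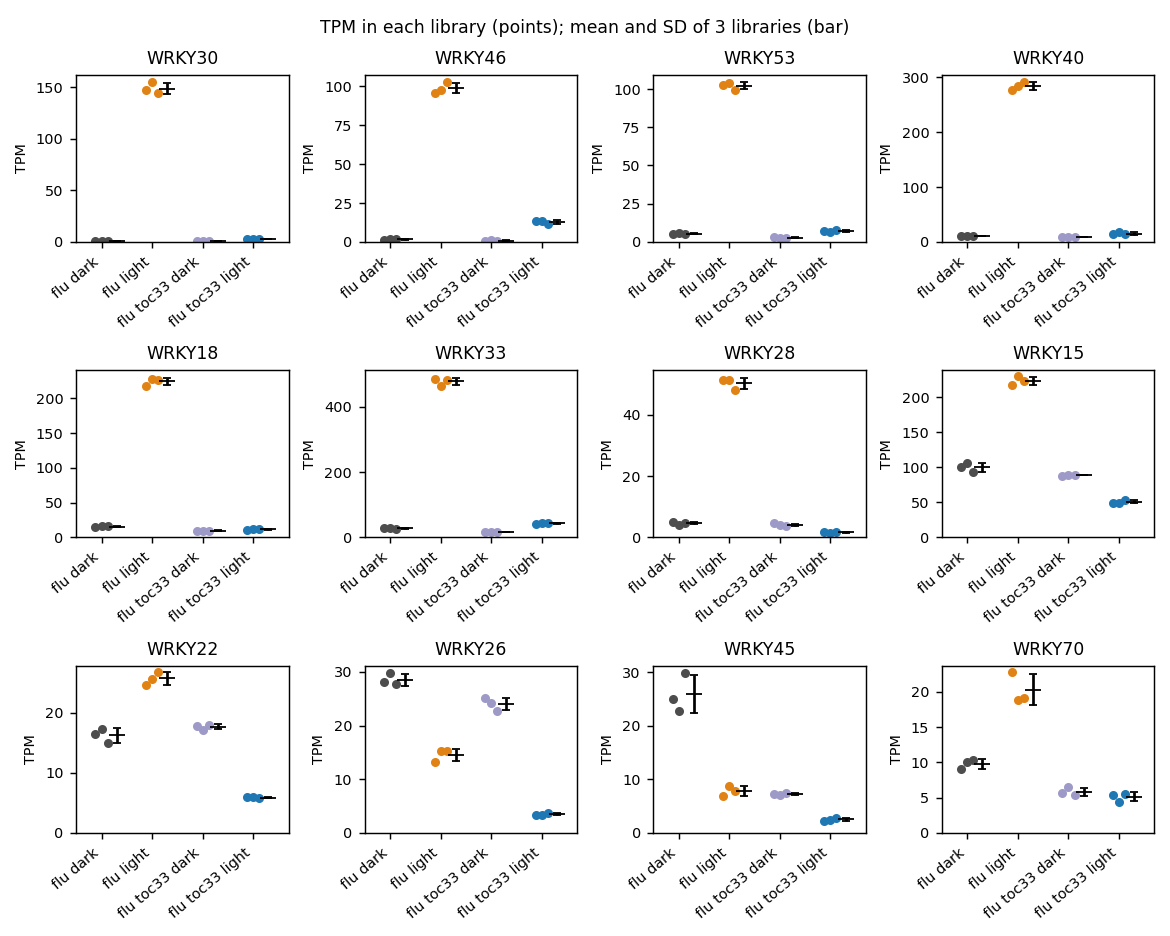
TPM of 12 named members in each library (points) with the mean and SD of 3 libraries (bar), one panel a member on its own linear axis from 0. WRKY30, WRKY46, WRKY53, WRKY40, WRKY18, WRKY33 and WRKY28 are far higher in flu light than elsewhere, WRKY15 and WRKY22 fall below their dark level in flu toc33 light, and WRKY26 and WRKY45 fall with light in both genotypes.

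Subgroup I summed to 186 ± 11.0 TPM in flu dark, 645 ± 9.85 in flu light, 188 ± 4.79 in flu toc33 dark and 175 ± 4.74 in flu toc33 light. Its leading member was WRKY33 (AT2G38470), which is needed for synthesis of the phytoalexin camalexin and for resistance to necrotrophic fungi. WRKY33 was at 28.8, 29.5 and 25.5 TPM in flu dark, 484, 464 and 483 TPM in flu light, 15.4, 16.6 and 15.8 TPM in flu toc33 dark, and 41.99, 45.5 and 42.98 TPM in flu toc33 light. No groups overlapped, and flu toc33 light lay above flu dark while flu toc33 dark lay below it. Light raised it by 4.05 ± 0.0539 (SE) in flu and 1.40 ± 0.0539 (SE) in flu toc33, with an interaction of -2.65 ± 0.0762 (SE) (limma adjusted p = 7.05e-16, 2.26e-11 and 7.4e-12). In darkness the flu toc33 mean was 56.95% of that of flu (log2 -0.77 ± 0.0539 (SE), limma adjusted p = 1.12e-07).

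WRKY25 and WRKY26 are the closest relatives of WRKY33 and are known to act with it in heat tolerance, yet the 3 genes differed in their light response. WRKY26 (AT5G07100) was at 28.1, 29.8 and 27.7 TPM in flu dark, 13.2, 15.2 and 15.2 TPM in flu light, 25.1, 24.1 and 22.8 TPM in flu toc33 dark, and 3.33, 3.34 and 3.66 TPM in flu toc33 light. It fell with light in both genotypes, without overlap, and reached its lowest level in flu toc33 light. The fall was 0.93 ± 0.0666 (SE) in flu and 2.49 ± 0.0666 (SE) in flu toc33 on the log2 scale, with an interaction of -1.57 ± 0.0941 (SE) (limma adjusted p = 2.84e-08, 4.17e-13 and 8.83e-09). WRKY26 was also lower in flu toc33 dark by 0.24 (limma adjusted p = 0.0104), a call that ended without replicate 3 of flu toc33 dark (log2 -0.21, limma adjusted p = 0.0514). WRKY25 was at 23.03 ± 1.42 TPM in flu dark and 40.3 ± 1.36 in flu light, but at 24.3 ± 0.975 and 23.7 ± 0.297 in flu toc33. It rose by 0.78 in flu, its change of -0.03 in flu toc33 was not called, and the interaction was -0.82 ± 0.0746 (SE) (limma adjusted p = 6.36e-07). WRKY2 (AT5G56270), known from embryo polarity and seed germination, was at 6.85, 6.31 and 5.41 TPM in flu dark, 12.4, 12.7 and 13.99 TPM in flu light, 7.53, 6.95 and 7.59 TPM in flu toc33 dark, and 5.57, 5.59 and 6.26 TPM in flu toc33 light. It stood highest in flu light, and its libraries in flu toc33 light lay below those of flu toc33 dark. It rose by 0.96 ± 0.0841 (SE) in flu and fell by 0.30 ± 0.0841 (SE) in flu toc33 (limma adjusted p = 2.29e-07 and 0.0062), with an interaction of -1.26 ± 0.119 (SE) (limma adjusted p = 8.67e-07).

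The other members of subgroup I changed by less than 1 on the log2 scale. WRKY1, named ZAP1 in RefSeq, rose in both genotypes, by 0.30 and 0.37. WRKY3 and WRKY4, which take part in resistance to necrotrophic fungi, fell in both, WRKY4 by 0.21 in flu and 0.85 in flu toc33. They were also higher in flu toc33 dark, WRKY4 by 0.28 and WRKY3 by 0.37, the latter not called when the compared groups were fitted alone (limma adjusted p = 0.058). WRKY3 fell by 0.26 in flu, a call that ended without any 1 of 5 flu libraries, namely replicates 1 and 2 of flu dark and all 3 of flu light (log2 -0.29 to -0.16, limma adjusted p = 0.0510 to 0.172). WRKY32 rose in flu by 0.22 and was higher in flu toc33 dark by 0.26, and its change in flu toc33 was -0.06. The rise in flu was not called with quantile normalization (log2 0.13, limma adjusted p = 0.0801). Neither WRKY20 nor WRKY44, the trichome and seed coat regulator named TTG2 in RefSeq, was called in either light comparison, with changes between -0.13 and 0.17. With quantile normalization WRKY20 was called lower in both (log2 -0.16 in flu and -0.17 in flu toc33, limma adjusted p = 0.0173 and 0.0101). In flu toc33 it was also called lower with median-ratio scaling (-0.19) and without replicate 3 of flu toc33 dark (-0.18).

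In subgroup IIb, WRKY6 (AT1G62300), a regulator of senescence and of phosphate transport, was at 12.5, 11.4 and 11.3 TPM in flu dark, 48.9, 47.9 and 47.8 TPM in flu light, 6.33, 6.32 and 6.29 TPM in flu toc33 dark, and 8.78, 8.59 and 8.64 TPM in flu toc33 light. No groups overlapped, and flu toc33 light stayed below flu dark. It rose by 1.95 ± 0.0521 (SE) in flu and 0.40 ± 0.0521 (SE) in flu toc33, with an interaction of -1.55 ± 0.0737 (SE) (limma adjusted p = 5.89e-13, 9.14e-06 and 8.48e-10). In darkness its flu toc33 mean was 53.8% of the flu mean (log2 -0.80 ± 0.0521 (SE), limma adjusted p = 5.9e-08). On the log2 scale this was the third largest dark difference of the family, after WRKY75 and WRKY45. By percentage of the flu mean WRKY46 and WRKY53, at 50.1% and 51.7%, and the low WRKY51 and WRKY54 also differed more. WRKY47 (AT4G01720) was at 11.2, 11.5 and 8.12 TPM in flu dark, 13.2, 12.8 and 12.1 TPM in flu light, 8.83, 8.89 and 9.11 TPM in flu toc33 dark, and 4.35, 4.19 and 4.34 TPM in flu toc33 light. Its lowest libraries were those of flu toc33 light, without overlap with any other group. It fell by 0.91 ± 0.09903 (SE) in flu toc33, and the interaction was -1.20 ± 0.1401 (SE) (limma adjusted p = 1.58e-06 and 6.78e-06). Its rise of 0.29 in flu (limma adjusted p = 0.0202) was not called without replicate 1 or without replicate 2 of flu light (log2 0.27 to 0.29, limma adjusted p = 0.0507 to 0.0669). With quantile normalization that rise was not called either (log2 0.18, limma adjusted p = 0.0542). Nor was it called when the compared groups were fitted alone (log2 0.29, limma adjusted p = 0.0696).

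Subgroup IIc was the largest and held members of both directions. Light in flu raised 6 of its 11 members and lowered 3 (54.5% and 27.3%, beside 28.2% and 33.4% of all loci), and in flu toc33 it raised 3 and lowered 2 (27.3% and 18.2%, beside 40.4% and 30.6%). The 6 include WRKY51, which passed the filter only through flu light. WRKY28 (AT4G18170), known to activate the salicylic acid synthesis gene ICS1, was at 5.08, 4.19 and 4.802 TPM in flu dark, 51.3, 51.2 and 48.1 TPM in flu light, 4.59, 3.89 and 3.77 TPM in flu toc33 dark, and 1.89, 1.54 and 1.73 TPM in flu toc33 light. It was high in flu light alone, and in flu toc33 the light libraries were the lowest of all. Light thus raised it by 3.17 ± 0.0849 (SE) in flu and lowered it by 0.90 ± 0.0849 (SE) in flu toc33 (limma adjusted p = 6.03e-13 and 3.5e-07), and the interaction of -4.07 ± 0.1201 (SE) was the second largest in size (limma adjusted p = 9.3e-12). After darkness the genotypes overlapped, with a difference of -0.16 ± 0.0849 (SE) that was not called (limma adjusted p = 0.143). WRKY48 (AT5G49520), a negative regulator of resistance to bacteria, was at 2.95, 2.84 and 2.58 TPM in flu dark, 30.7, 31.9 and 29.8 TPM in flu light, 2.38, 2.49 and 2.26 TPM in flu toc33 dark, and 3.72, 5.01 and 4.66 TPM in flu toc33 light. Both light groups lay above their own dark group, flu light by far the most. It rose by 3.07 ± 0.0887 (SE) in flu and 0.69 ± 0.0887 (SE) in flu toc33, with an interaction of -2.38 ± 0.125 (SE) (limma adjusted p = 1.36e-12, 8.97e-06 and 2.34e-09). WRKY23 (AT2G47260), known from auxin responses in roots and nematode feeding sites, was at 2.32, 2.83 and 2.21 TPM in flu dark, 6.83, 7.13 and 7.09 TPM in flu light, 2.24, 2.14 and 2.02 TPM in flu toc33 dark, and 3.74, 4.07 and 3.92 TPM in flu toc33 light. It rose in both genotypes, by 1.22 ± 0.08201 (SE) and 0.65 ± 0.08201 (SE), and the interaction was -0.57 ± 0.116 (SE) (limma adjusted p = 1.4e-08, 7.38e-06 and 0.000869).

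WRKY45 and WRKY75, regulators of phosphate starvation responses and of senescence, moved the other way in flu. On the log2 scale they showed the largest genotype differences in darkness. WRKY45 (AT3G01970) was at 25.1, 22.8 and 29.9 TPM in flu dark, 6.92, 8.74 and 7.92 TPM in flu light, 7.297, 7.14 and 7.403 TPM in flu toc33 dark, and 2.28, 2.48 and 2.87 TPM in flu toc33 light. The flu dark libraries were the highest, flu toc33 light the lowest, and flu light overlapped flu toc33 dark. Light lowered it by 1.60 ± 0.102 (SE) in flu and 1.23 ± 0.102 (SE) in flu toc33 (limma adjusted p = 7.39e-09 and 9.26e-08), and in darkness it was lower in flu toc33 by 1.69 ± 0.102 (SE) (limma adjusted p = 2.65e-08). Its interaction of 0.38 (limma adjusted p = 0.0396) ended without any 1 of 9 libraries, those not named being flu dark replicate 2, flu light replicate 2 and flu toc33 light replicate 1 (log2 0.27 to 0.39, limma adjusted p = 0.0506 to 0.104). The call was also lost with a pseudocount of 0.1 TPM, no filter on low values, quantile normalization or median-ratio scaling (log2 0.22 to 0.38, limma adjusted p = 0.0600 to 0.264). WRKY75 was at 10.01, 9.83 and 9.48 TPM in flu dark and 5.68, 4.78 and 4.69 in flu light, against 2.32, 2.74 and 1.55 in flu toc33 dark and 1.42, 2.35 and 1.35 in flu toc33 light. Every flu library was above every flu toc33 library. In darkness the flu toc33 mean was 22.5% of the flu mean (log2 -1.77 ± 0.1498 (SE), limma adjusted p = 7.37e-07). It fell with light in flu by 0.84 ± 0.1498 (SE) (limma adjusted p = 0.000259), and its change in flu toc33 was -0.25 ± 0.1498 (SE) (limma adjusted p = 0.158).

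WRKY57, which links auxin and jasmonate in senescence, rose in both genotypes, by 0.75 in flu and 0.90 in flu toc33, and its interaction of 0.15 ± 0.138 (SE) was not called (limma adjusted p = 0.362). It was thus among the few induced members that did not end lower in flu toc33 light, with 24.05 ± 3.47 TPM there and 19.1 ± 1.13 TPM in flu light. WRKY50 and WRKY51 are known for their part in salicylic acid repression of jasmonate signalling. WRKY50 changed by -0.35 in flu and 0.30 in flu toc33, neither called, yet it was higher in flu toc33 light by 0.60 (limma adjusted p = 0.00286). WRKY51 was at 0.523 TPM in flu dark, 1.96 in flu light, 0.0768 in flu toc33 dark and 0.204 in flu toc33 light. It passed the filter of 1 TPM only through its 3 flu light libraries, so its calls with flu light follow in part from the filter and are given as a description. The rest of the subgroup was also low. WRKY8 had means of 1.99, 2.81, 1.32 and 1.16 TPM in the order flu dark, flu light, flu toc33 dark and flu toc33 light. Its rise of 0.36 in flu was not called without replicate 1 of flu dark or of flu light (log2 0.25 to 0.32, limma adjusted p = 0.0583 to 0.0854). Quantile normalization also ended that call (log2 0.26, limma adjusted p = 0.0678). WRKY12 and WRKY13, regulators of flowering and of secondary walls, ranged from 0.627 to 1.32 TPM in their group means, and WRKY13 fell by 0.43 in flu.

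Members of subgroup IId bind calmodulin, and they included the most abundant member outside flu light. The subgroup summed to 211 ± 11.8 TPM in flu dark, 465 ± 2.46 in flu light, 195 ± 0.912 in flu toc33 dark and 152 ± 5.27 in flu toc33 light. WRKY15 (AT2G23320), a regulator of growth and of responses to salt and oxidative stress, was at 100.5, 107 and 94.1 TPM in flu dark, 218, 230.1 and 223 TPM in flu light, 88.4, 89.7 and 89.4 TPM in flu toc33 dark, and 49.8, 49.4 and 53.7 TPM in flu toc33 light. It rose above flu dark in flu light, and fell below flu toc33 dark in flu toc33 light, without overlap in either case. The change was 1.15 ± 0.0474 (SE) in flu and -0.80 ± 0.0474 (SE) in flu toc33, with an interaction of -1.94 ± 0.06698 (SE) (limma adjusted p = 6.35e-11, 2.53e-09 and 3.68e-11). WRKY7 (AT4G24240) behaved likewise in direction, at 21.6, 22.5 and 20.03 TPM in flu dark, 38.7, 39.5 and 38.7 TPM in flu light, 22.9, 21.7 and 21.95 TPM in flu toc33 dark, and 12.2, 12.8 and 14.2 TPM in flu toc33 light. Its highest libraries were those of flu light, its lowest those of flu toc33 light, and the dark groups overlapped. It rose by 0.84 ± 0.0598 (SE) in flu and fell by 0.72 ± 0.0598 (SE) in flu toc33, with an interaction of -1.56 ± 0.0846 (SE) (limma adjusted p = 2.66e-08, 9.11e-08 and 3.1e-09).

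WRKY11 and WRKY17, related negative regulators of basal resistance to bacteria, rose in both genotypes. WRKY11 (AT4G31550) was at 17.9, 17.8 and 18.4 TPM in flu dark, 116, 108 and 112 TPM in flu light, 11.9, 12.1 and 12.1 TPM in flu toc33 dark, and 20.6, 23.97 and 24.6 TPM in flu toc33 light. No groups overlapped, and flu toc33 light was above flu dark. It rose by 2.57 ± 0.0599 (SE) in flu and 0.88 ± 0.0599 (SE) in flu toc33, with an interaction of -1.69 ± 0.0847 (SE) (limma adjusted p = 1.41e-13, 1.08e-08 and 1.36e-09). WRKY17 (AT2G24570) was at 8.92, 10.8 and 8.01 TPM in flu dark, 38.2, 35.0 and 36.9 TPM in flu light, 8.89, 8.696 and 9.67 TPM in flu toc33 dark, and 21.8, 21.1 and 21.9 TPM in flu toc33 light. Its dark groups overlapped, and both light groups were above them. WRKY17 rose by 1.89 ± 0.0828 (SE) in flu and 1.17 ± 0.0828 (SE) in flu toc33, with an interaction of -0.72 ± 0.117 (SE) (limma adjusted p = 1.22e-10, 1.72e-08 and 0.000138). WRKY11 was lower in flu toc33 dark by 0.55 (limma adjusted p = 8.17e-06), whereas WRKY17 differed there by -0.01 ± 0.0828 (SE) (limma adjusted p = 0.912). WRKY21 fell by nearly equal amounts in both genotypes, 0.49 and 0.52, and its interaction of -0.03 ± 0.0839 (SE) was not called (limma adjusted p = 0.77). WRKY39 fell in flu toc33 by 0.48, while its change of 0.02 in flu was not called.

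The summed level of subgroup IIe changed little with light in flu. It summed to 46.7 ± 1.20 TPM in flu dark, 45.7 ± 0.559 in flu light, 47.1 ± 0.590 in flu toc33 dark and 29.6 ± 1.74 in flu toc33 light. Of its 7 members 2 rose and 5 fell with light in flu, and 3 rose and 4 fell in flu toc33. The shares that rose, 28.6% and 42.9%, were near those of all loci, 28.2% and 40.4%, and the shares that fell were 71.4% and 57.1%, beside 33.4% and 30.6%. WRKY22 (AT4G01250) and WRKY29 (AT4G23550) are known together as targets of the kinase cascade started by the flagellin receptor, and they parted here. WRKY22 was at 16.4, 17.3 and 14.96 TPM in flu dark, 24.7, 25.7 and 26.8 TPM in flu light, 17.8, 17.2 and 17.95 TPM in flu toc33 dark, and 5.91, 5.96 and 5.82 TPM in flu toc33 light. The flu light libraries were the highest, the flu toc33 light libraries by far the lowest, and the dark groups overlapped. It rose by 0.63 ± 0.0595 (SE) in flu and fell by 1.44 ± 0.0595 (SE) in flu toc33, with an interaction of -2.07 ± 0.0841 (SE) (limma adjusted p = 4.91e-07, 4.9e-11 and 1.86e-10). WRKY29 was at 5.44, 7.21 and 7.57 TPM in flu dark, 2.85, 3.96 and 2.67 in flu light, 8.03, 7.196 and 7.82 in flu toc33 dark and 3.57, 3.61 and 3.65 in flu toc33 light. It fell in both genotypes, by 0.90 and 0.91, with an interaction of -0.01 ± 0.173 (SE) that was not called (limma adjusted p = 0.95).

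The remaining members of IIe had means of 10.1 TPM or less in every group. WRKY69 and WRKY65 fell with light in both genotypes, WRKY69 by 0.62 and 0.78 and WRKY65 by 0.59 and 0.41. WRKY14 and WRKY35 fell in flu and rose in flu toc33, the reverse of the order seen for WRKY22. WRKY14 was at 2.87 TPM in flu dark, 2.02 in flu light, 3.09 in flu toc33 dark and 4.098 in flu toc33 light, with an interaction of 0.68 ± 0.118 (SE) (limma adjusted p = 0.000253). WRKY35 was at 0.848, 0.372, 1.17 and 1.81 TPM, with an interaction of 0.80 ± 0.168 (SE) (limma adjusted p = 0.00108). Its rise of 0.38 in flu toc33 was not called without replicate 2 of flu toc33 dark (log2 0.30, limma adjusted p = 0.0551). With quantile normalization neither rise in flu toc33 was called (log2 0.12 for WRKY14 and 0.22 for WRKY35, limma adjusted p = 0.206 and 0.130). WRKY27, known from symptom development in bacterial wilt, rose by 0.96 in flu toc33 (limma adjusted p = 8.9e-06). Its rise of 0.37 in flu was not called without replicate 3 of flu dark or replicate 1 of flu light (log2 0.26 to 0.29, limma adjusted p = 0.0769 to 0.0894). Quantile normalization also ended that call (log2 0.27, limma adjusted p = 0.0642).

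Read member by member, 14 of the 44 were called higher with light in both genotypes and 8 were called lower in both, which is 31.8% and 18.2% of members beside 20.9% and 21.1% of all loci. A further 6, WRKY22, WRKY15, WRKY28, WRKY7, WRKY2 and WRKY47, were called higher in flu and lower in flu toc33, 13.6% of members beside 2.39% of loci. Among these 6 the call of WRKY47 in flu was lost under other settings, as given with subgroup IIb. WRKY14 and WRKY35 were called lower in flu and higher in flu toc33, 4.55% of members beside 4.23% of loci. Of the rest, 5 were called higher in flu alone (11.4% of members, 4.92% of loci), 2 lower in flu alone (4.55% and 8.09%) and 1 lower in flu toc33 alone (2.27% and 7.15%). The 5 include WRKY51, which passed the filter only through flu light. Called in neither were 6 members, 13.6% of them, beside 16.0% of loci. Of the 14 members called higher in both, WRKY57 and WRKY1 had no called interaction, WRKY27 had a higher one of 0.59, and the other 11 had a lower one. Across the genotype comparisons, 16 members were called lower in flu toc33 in both darkness and light, 36.4% of members beside 8.74% of all loci. They include WRKY8, whose dark call ended without replicate 2 or 3 of flu dark or replicate 1 or 3 of flu toc33 dark (log2 -0.34 to -0.29, limma adjusted p = 0.0741 to 0.0868). They also include WRKY15 and WRKY26, whose dark calls each ended without 1 library (log2 -0.12 for WRKY15 without replicate 2 of flu dark, and -0.21 for WRKY26 without replicate 3 of flu toc33 dark). WRKY51 and WRKY54 are among them too, and both passed the filter only through flu libraries. A further 12 were called lower in light and not in darkness, among them WRKY28, WRKY30 and WRKY48, which is 27.3% of members beside 13.6% of loci. WRKY4 was higher in darkness and lower in light.

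**Figure D4:**
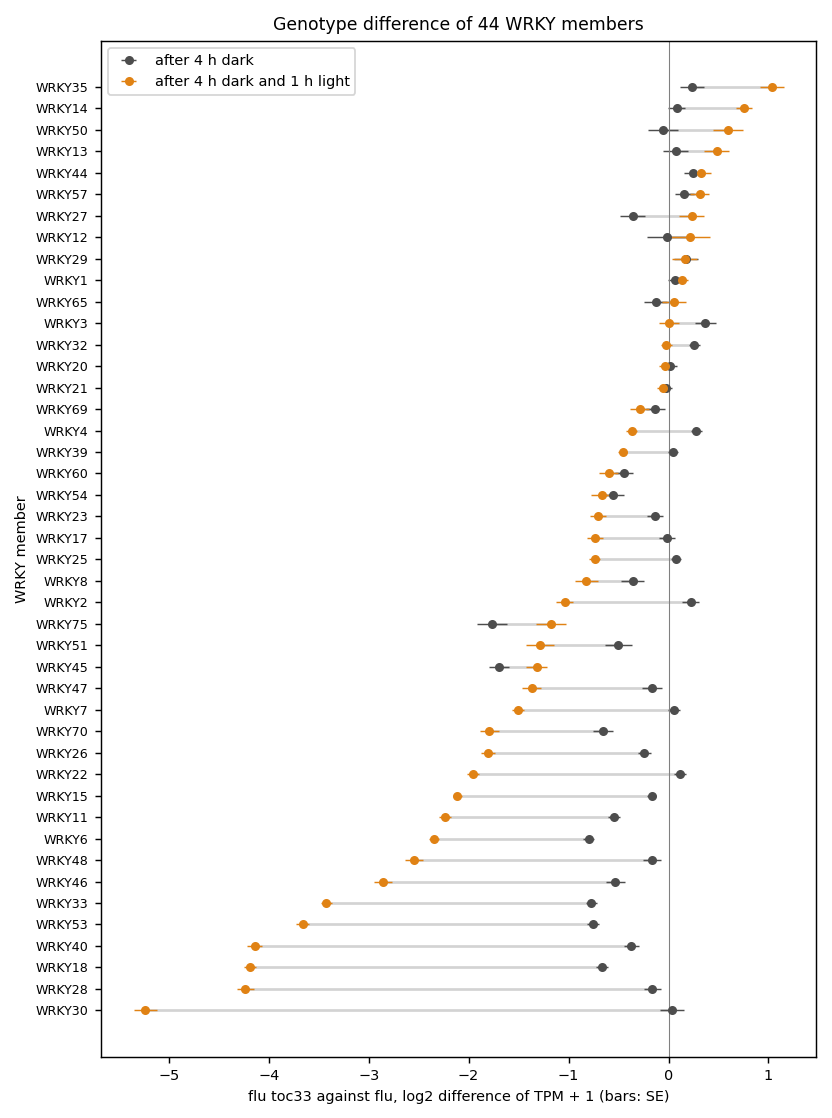
Log2 difference of TPM + 1 between flu toc33 and flu for 44 members, after 4 h of darkness (grey) and after 4 h of darkness and 1 h of light (orange), with bars for the SE. WRKY30, WRKY28, WRKY18 and WRKY40 have the largest light differences, while WRKY75 and WRKY45 have the largest dark ones.

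The 8 members below the filter were WRKY38, WRKY41, WRKY55 and WRKY62 of subgroup III, WRKY31, WRKY42 and WRKY61 of IIb, and WRKY74 of IId. Just outside it, WRKY41 reached 1 TPM in 2 libraries, both of flu light, where it was at 1.53, 0.979 and 1.22 TPM, and WRKY62 reached it in 1 library. Just inside it, WRKY54 and WRKY51 reached 1 TPM in 3 libraries and WRKY12 in 4. WRKY55 had a mean of 0.586 TPM in flu light and 0.194 TPM or less in the other groups, and WRKY55 and WRKY54 are neighbouring genes in RefSeq. The group means of WRKY38 lay at 0.159 TPM or less. WRKY74 lay between 0.425 and 0.686 TPM, and WRKY31, WRKY42 and WRKY61 between 0.348 and 0.8001 TPM. These 8 members were not tested.

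Transcript models were summed above, and 12 members had at least 2 models at 1 TPM or more in 3 libraries. For WRKY15 model 1 held 98.4% to 99.6% of TPM in the group means, and for WRKY57 model 4 held 53.8% to 59.8%. WRKY18 was singled out after its values were seen. Model 1 held 65.5%, 51.4% and 40.1% of WRKY18 TPM in the flu dark libraries and 34.1%, 20.8% and 27.3% in those of flu light. These groups did not overlap. In flu toc33 its share was 55.1%, 43.2% and 46.5% in darkness and 44.8%, 43.5% and 24.6% in light, which overlapped. Model 3 held 18.1%, 22.2% and 20.8% in flu dark, 34.6%, 40.9% and 38.5% in flu light, 26.0%, 32.1% and 28.3% in flu toc33 dark, and 34.5%, 34.7% and 36.7% in flu toc33 light. The shares of model 3 were higher in light without overlap in both genotypes. An exact permutation test of 3 against 3 cannot go below p = 0.1, so these shares are given as a description, and the split of reads between models of 1 locus is an estimate.

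**Figure D5:**
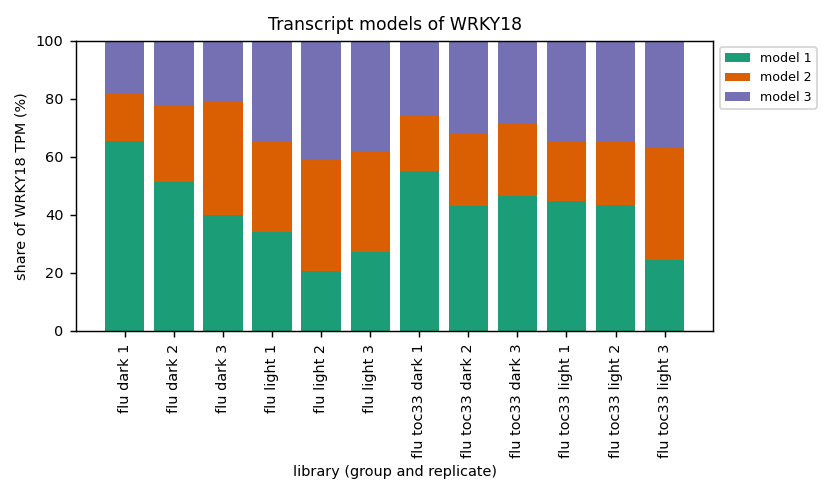
Share of WRKY18 TPM (%) assigned to transcript models 1, 2 and 3 in each of the 12 libraries, as stacked bars that add up to 100%. Model 1 takes 40.1% to 65.5% in flu dark and 20.8% to 34.1% in flu light, and model 3 rises with light in both genotypes.

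Genes around the family were read from lists of upstream kinases, VQ-motif partners and reported targets. Of 13 kinases 12 were tested. In flu 10 rose with light and 0 fell at the limma threshold, in flu toc33 7 rose and 3 fell, and the interaction was lower for 9 and higher for 0, with median log2 values of 1.20, 0.20 and -0.72. Of all loci 28.2% rose and 33.4% fell in flu, 40.4% rose and 30.6% fell in flu toc33, and 25.1% had a lower and 31.6% a higher interaction. The share of kinases that fell in flu toc33, 3 of 12, was near that of all loci. The 0 of 12 lower in flu became 1 with quantile normalization or with no filter on low values, and 2 without replicate 3 of flu dark. MPK3, which phosphorylates WRKY33, was at 64.3, 64.5 and 55.4 TPM in flu dark, 419, 407 and 426 TPM in flu light, 51.97, 50.6 and 52.2 TPM in flu toc33 dark, and 56.8, 61.6 and 59.2 TPM in flu toc33 light. Its flu light libraries stood far above all others, and its interaction was -2.55 ± 0.07597 (SE) (limma adjusted p = 1.02e-11). MKK9, a kinase upstream of MPK3, rose by 1.78 in flu and fell by 0.31 in flu toc33, with an interaction of -2.09 ± 0.0602 (SE) (limma adjusted p = 7.4e-12). MPK11 and MPK5 rose in both genotypes with lower responses in flu toc33, by 2.36 and 1.07 on the log2 scale. MAPKKK3 had an interaction of -0.55, with a fall of 0.68 in flu toc33.

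Among VQ partners, 16 of 20 were tested, and 11 rose and 2 fell in flu, 7 rose and 4 fell in flu toc33, and 13 had a lower and 0 a higher interaction, with medians of 1.00, 0.24 and -0.75. The shares of the list were 68.8% and 12.5% in flu, beside 28.2% and 33.4% of all loci, and 81.2% for the lower interaction, beside 25.1%. In flu toc33 they were 43.8% and 25%, near the 40.4% and 30.6% of all loci. These counts include AT2G22880, which passed the filter only through flu light. SIB1, a plastid and nuclear protein that binds WRKY33, was at 1.85, 1.71 and 2.099 TPM in flu dark, 35.7, 40.8 and 38.5 TPM in flu light, 1.33, 1.16 and 1.15 TPM in flu toc33 dark, and 4.87, 5.35 and 4.73 TPM in flu toc33 light. Both light groups were above the dark groups, flu light by far. Its interaction was -2.34 ± 0.114 (SE) (limma adjusted p = 1.07e-09). MKS1, which joins WRKY33 to MPK4, rose by 1.68 in flu and fell by 0.68 in flu toc33, with an interaction of -2.36 ± 0.1402 (SE) (limma adjusted p = 7.93e-09). CAMBP25, a calmodulin-binding member of this list, rose from 10.8 to 59.6 TPM in flu and from 11.3 to 14.1 TPM in flu toc33, with an interaction of -2.07 ± 0.0767 (SE) (limma adjusted p = 7.88e-11). The locus AT3G56880 of the same list rose from 23.6 to 259.6 TPM in flu and from 23.9 to 39.4 TPM in flu toc33. The locus AT2G22880 was listed at 0 in all libraries of the other groups and was at 55.1, 56.9 and 70.96 TPM in flu light, and a fold cannot be formed against 0.

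The genes reported as WRKY targets were more divided. Of 20 listed 19 were tested, and 10 rose and 7 fell in flu, 12 rose and 3 fell in flu toc33, and the interaction was lower for 9 and higher for 8, with medians of 0.27, 0.31 and -0.19. The shares of the list were 52.6% and 36.8% in flu, the latter near the 33.4% of all loci, 63.2% and 15.8% in flu toc33, and 47.4% and 42.1% for the interaction. In darkness 14 of the 19 were lower in flu toc33 and 2 were higher, beside 20.5% and 20.9% of all loci. The list includes CYP71A13 and FRK1, which passed the filter only through flu dark and flu light, respectively. CYP71A12, ACS2, JAZ8 and PR1 also stayed under 1 TPM in every flu toc33 library and so passed only through flu libraries. Any call of these genes as lower in flu toc33 follows in part from the filter, and the counts are given as a description. ACS6, an ethylene synthesis enzyme, was at 7.599 ± 0.535 TPM in flu dark, 103 ± 2.45 in flu light, 5.77 ± 0.411 in flu toc33 dark and 29.1 ± 1.81 in flu toc33 light. EDS1 and CBP60G, which promote salicylic acid defence, rose in both genotypes with interactions of -1.49 ± 0.0835 (SE) and -1.91 ± 0.0925 (SE) (limma adjusted p = 4.33e-09 and 9.77e-10). AOX1A, the alternative oxidase of mitochondria and a gene that WRKY40 is known to repress, did not share this direction of the interaction. It was at 36.96, 36.2 and 37.4 TPM in flu dark, 164, 164 and 163 TPM in flu light, 10.9, 11.7 and 11.3 TPM in flu toc33 dark, and 129, 133 and 139 TPM in flu toc33 light. Both light groups were far above the dark groups, and flu toc33 dark was the lowest. In light flu toc33 lay below flu without overlap. It rose by 2.12 ± 0.0398 (SE) in flu and 3.46 ± 0.0398 (SE) in flu toc33, with a higher interaction of 1.33 ± 0.0563 (SE) (limma adjusted p = 1.71e-14, 9.46e-17 and 2.66e-10). The locus AT2G21640 was at 23.2, 26.9, 29.5 and 147 TPM in flu dark, flu light, flu toc33 dark and flu toc33 light, with an interaction of 2.07 ± 0.1002 (SE) (limma adjusted p = 1e-09).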

How the data were processed

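RNA of 12 libraries was sequenced on DNBSEQ-T7, per the labels' protocols. The deposited table holds TPM for 48359 transcripts, and each column sums to 1000000. The submitters' processing notes name kallisto 0.46.2, sleuth 0.30.0 and TAIR10. Transcript index, strand setting and filters were not given in the sources used here, so reads of near-identical or overlapping genes may be split by estimate.

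TPM were summed per locus, and loci reaching 1 TPM in 3 or more libraries were tested on log2(TPM + 1) with limma 3.58.1 in R 4.3.3 (group means over all 12 libraries, intensity trend, Benjamini-Hochberg adjustment, threshold 0.05). The code was tested on simulated data. The planned count test did not apply, since no counts were at hand. Members, lists and tests were chosen with earlier results of these data known.

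Members described one by one were those with a called interaction, or a called light response, of at least 1 on the log2 scale and a mean of 5 TPM or more in some group. From each gene list the 5 with the smallest interaction p were named. Other genes, and library values of WRKY75, WRKY29 and WRKY41, were added after their values were seen. Alternatives were other pseudocounts, filters, scalings and fits, and leaving out each library. Names came from RefSeq (TAIR10.1), which matched 50 members by symbol and 2 by synonym. No sequences are printed.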

Additional observations from a re-analysis of the deposited data

Results flagged for a closer look

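Results were put here when the light response differed between flu and flu toc33 in the test of that difference (limma interaction, adjusted over all 19667 loci, threshold 0.05), which held for 32 members. Values are the flu toc33 response minus the flu response on the log2 scale, 3 libraries a group. In subgroup III the differences were WRKY30 -5.27, WRKY53 -2.91, WRKY46 -2.32 and WRKY70 -1.14. In subgroup IIa the differences were WRKY40 -3.77 and WRKY18 -3.52. In subgroup I the differences were WRKY33 -2.65, WRKY26 -1.57, WRKY2 -1.26, WRKY25 -0.82, WRKY4 -0.65, WRKY3 -0.37 and WRKY32 -0.28. In subgroup IIb the differences were WRKY6 -1.55 and WRKY47 -1.20. In subgroup IIc the differences were WRKY28 -4.07, WRKY48 -2.38, WRKY51 -0.79, WRKY23 -0.57, WRKY8 -0.47, WRKY45 0.38, WRKY75 0.59 and WRKY50 0.65. In subgroup IId the differences were WRKY15 -1.94, WRKY11 -1.69, WRKY7 -1.56, WRKY17 -0.72 and WRKY39 -0.50. In subgroup IIe the differences were WRKY22 -2.07, WRKY27 0.59, WRKY14 0.68 and WRKY35 0.80. All groups hold 3 libraries, too few to test for single outlying samples. The calls of WRKY3, WRKY8, WRKY45 and WRKY75 each ended without single libraries, as the report gives for WRKY45 and the part on processing for the others. The call of WRKY45 was also lost under other settings, as the report gives. That of WRKY75 was lost with a pseudocount of 0.1 TPM (log2 0.58, limma adjusted p = 0.115). With no filter on low values that of WRKY3 was lost (log2 -0.37, limma adjusted p = 0.0673). WRKY51 passed the filter of 1 TPM only through its flu light libraries, and its call was lost with a pseudocount of 0.1 TPM (log2 -0.90, limma adjusted p = 0.203). In TPM its means rose 3.75-fold in flu and 2.66-fold in flu toc33.

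Among the kinases, partners and reported targets described by name, the response also differed for 14 genes with no group listed at 0. It was lower in flu toc33 for AT3G56880 -2.71, MPK3 -2.55, MPK11 -2.36, MKS1 -2.36, SIB1 -2.34, MKK9 -2.09, CAMBP25 -2.07, CBP60G -1.91, EDS1 -1.49, ACS6 -1.45, MPK5 -1.07 and MAPKKK3 -0.55. It was higher for AOX1A 1.33 and AT2G21640 2.07.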

How the results depend on the processing

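Of 2101 log2 values of members recomputed under other pseudocounts, filters, scalings and fits, 0 reversed, 24 lost and 21 gained a limma call. With at least a 2-fold change required, the members called were 13 higher and 1 lower for light in flu, 5 and 3 in flu toc33, 0 and 2 for genotype in darkness, 1 higher for genotype in light, and 0 higher and 17 lower for the interaction. Quantile normalization gave 5 higher members in darkness in place of 3. A filter of 5 TPM left 1 higher member for genotype in light and 2 for the interaction, in place of 6 each. Quantile normalization also split all loci for light in flu into 4691 higher and 8660 lower, in place of 5547 and 6571.

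Leaving out each library in turn gave 22 to 25 higher and 11 to 13 lower members for light in flu, 15 to 17 and 15 to 17 in flu toc33, 3 to 4 and 14 to 17 for genotype in darkness, 5 to 7 and 28 to 29 in light, and 4 to 6 and 24 to 26 for the interaction. Interaction calls ended for WRKY3 without any 1 of 9 libraries, all but those of flu dark (log2 -0.40 to -0.32), for WRKY75 without replicate 1 of flu dark, 2 or 3 of flu light, 3 of flu toc33 dark or 2 of flu toc33 light (0.43 to 0.57), for WRKY45 without any 1 of 9 libraries (0.27 to 0.39), and for WRKY8 without replicate 1 of flu dark, 1 or 3 of flu light, 2 of flu toc33 dark or 1 of flu toc33 light (-0.45 to -0.36). In darkness the call of WRKY27 ended without replicate 1 or 2 of flu dark or replicate 1 or 3 of flu toc33 dark (-0.36 to -0.26, limma adjusted p = 0.0669 to 0.134), and those of WRKY8, WRKY15 and WRKY26 ended as the report gives. The causes were not tested.

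Correlations of same-numbered deviations from the group means ran from -0.17 to 0.12, so same-numbered libraries showed no strong shared shift. Whether they were grown or harvested together is not stated, and these correlations cannot show it. With the replicate block, members called were 25 higher and 13 lower for light in flu, WRKY50 being the added one, and the other member counts equalled those without it. Depth is unknown, so what it limits cannot be stated.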

Other observations

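Of the 20 genes listed as reported WRKY targets, 9 stayed under 1 TPM in all 3 libraries of flu toc33 dark and 2 in all 3 of flu dark. The summed level of the list ran from 207 to 222 TPM in flu dark, 562 to 570 in flu light, 114 to 119 in flu toc33 dark and 408 to 428 in flu toc33 light, with no overlap between groups. By contrast, the 20 VQ partners summed to 165 to 182, 675 to 711, 159 to 166 and 170 to 175 TPM in that order. The 13 kinases summed to 283 to 336, 876 to 904, 313 to 320 and 327 to 352 TPM.

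Markers of leaf cell types were read in the same libraries. The 5 vascular markers summed to 193 to 195, 160 to 167, 177 to 182 and 144 to 147 TPM in flu dark, flu light, flu toc33 dark and flu toc33 light. The 4 guard cell markers summed to 232 to 242, 202 to 213, 224 to 231 and 201 to 204 TPM, and the 3 epidermal markers to 239 to 292, 221 to 233, 270 to 275 and 360 to 377 TPM. Their part in the results on WRKY members was not tested.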
